A study of Mus musculus with 3 samples.

Results

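The V genes of the T cell receptor alpha and beta chains were examined in mouse regulatory T cells, the CD4 T cells that restrain other immune cells and are marked by the transcription factor Foxp3. The members were all genes that GENCODE M21 types as TR_V_gene and whose symbol starts with Trav or Trbv. They were 119 of the 22457 genes with a count row, 98 of the alpha chain (TRAV, chromosome 14) and 21 of the beta chain (TRBV, chromosome 6). The annotation lists 130 such genes, and the other 11, among them Trbv4 and 10 TRAV genes, were not analysed here.

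RNA with a polyA tail was sequenced from primary regulatory T cells of adults (4 months), traced in the labels to bone marrow haematopoietic cells. They name no strain, genotype change or treatment. All 3 libraries are labelled as technical replicates of a single biological replicate, and nothing says whether they were made from the same RNA. The study thus holds 1 group and no comparison between conditions, and every SD and p-value measures the spread between these libraries only. The libraries did differ beyond counting error, since 2836 of 10282 genes tested (27.6%) passed a chi-square test between them, and 35 of 36 immunoglobulin V genes did. The libraries held 3206781, 3228215 and 2872350 counts, and values below are given in the order library 1, library 2, library 3. Levels are in CPM, counts scaled to 1000000 per library, and 3 counts, taken as the detection floor, equalled 0.936, 0.929 and 1.04 CPM.

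Each T cell builds its receptor by joining 1 V gene to a J segment, with a D segment between them in the beta chain, and then expresses that joined gene with a constant region. Joining is carried out by the Rag1 and Rag2 enzymes during development in the thymus. The V gene supplies the outer loops that touch peptide and MHC, and its last bases open the central loop, CDR3, which the joint completes. In a population of cells, the counts of the V genes therefore reflect how many cells use each V gene and how much receptor RNA each of them holds, and these cannot be told apart in bulk RNA.

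The ends of V genes show where CDR3 begins. The last 60 bases of the transcripts are printed for the 3 beta V genes with the highest counts and the 4 with the lowest, so that its start can be read in both. Sequences are those of GENCODE M21 transcripts on GRCm38, 5′ to 3′ on the plus strand, with the motif TGTGCCAGC, which starts with the TGT codon of the conserved cysteine, in capitals.
Trbv3: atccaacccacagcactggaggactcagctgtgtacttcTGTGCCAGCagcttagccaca
Trbv13-2: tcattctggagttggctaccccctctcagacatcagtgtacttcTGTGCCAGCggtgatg
Trbv19: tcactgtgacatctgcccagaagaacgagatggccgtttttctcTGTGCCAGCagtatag
Trbv21: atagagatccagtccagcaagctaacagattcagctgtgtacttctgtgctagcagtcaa
Trbv30: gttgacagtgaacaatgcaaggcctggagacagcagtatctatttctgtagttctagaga
Trbv23: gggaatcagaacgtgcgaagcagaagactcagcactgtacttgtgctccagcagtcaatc
Trbv14: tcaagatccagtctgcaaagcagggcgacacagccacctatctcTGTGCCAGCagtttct

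These ends lie at chr6:41048769-41048828 for Trbv3, chr6:41121773-41121832 for Trbv13-2 and chr6:41178989-41179048 for Trbv19. Those of the low genes lie at chr6:41202983-41203042 for Trbv21, chr6:41281931-41281990 for Trbv30, chr6:41216467-41216526 for Trbv23 and chr6:41135557-41135616 for Trbv14. The 3 high genes and Trbv14 hold the motif, and the 3 lowest do not. TGTGCCAGC stood in the last 60 bases of 12 of 21 TRBV genes (57.1%), in 0 of 98 TRAV genes, and in 0.0694% of 141307 other transcripts, counting both strands. Motif and count did not run strictly together. Trbv16, without the motif, held 1158 counts over the 3 libraries, and Trbv14, with it, held 195. A match is a description of letters only. Among TRAV genes, TGTGCAGC stood in 17 of 98 (17.3%, 15 of them on the sense strand) against 0.281% of other transcripts, and TGTGCTCT in 20 of 98 (20.4%) against 0.347%. The 15 genes with TGTGCAGC on the sense strand held 26.0% of TRAV counts, and the 20 with TGTGCTCT held 11.5%.

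Beta V genes were present at far higher summed levels than alpha V genes. TRBV genes summed to 5541, 6291 and 4991 counts, or 1805 ± 125 CPM (SD, n = 3). TRAV genes summed to 1648, 1795 and 1451 counts, or 525 ± 27.2 CPM (SD, n = 3). The constant gene of the alpha chain, Trac, had 1054, 1063 and 1032 counts, and the beta constant genes Trbc1 and Trbc2 together had 1234, 1209 and 1189. Trbc1 and Trbc2 are near-identical, and how reads were divided between them is uncertain.

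To set genes of different length side by side, counts were divided by coding bases. Reads on exon bases outside the coding sequence may be among the counts, while those bases are not in the length. The values are therefore not strictly on 1 scale. Summed over genes, TRBV reached 16.2 counts per coding base, averaged over libraries, against 2.34 for Trbc1 and Trbc2 together, a ratio of 6.93. For the alpha chain the sums were 4.73 for TRAV and 2.56 for Trac, a ratio of 1.85. Trac alone was close to the highest value of any gene with at least 300 coding bases, 2.62 counts per coding base, and Igkc (2.26) and Cd3g (2.19) were near it. Whether a limit on counts per base, or reads of TRAV copies that were not placed, sets these ratios or the excess of TRBV over TRAV counts was not tested. The highest single V genes were Trbv3 at 1.41 and Trav3-3 at 0.247 counts per coding base. The 13 beta J genes summed to 323 ± 5.85 CPM and the 2 beta D genes to 25.9 ± 1.79 CPM (SD, n = 3).

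Markers of regulatory T cells and of other cell types were counted in the same libraries. The receptor partners Cd3d, Cd3e, Cd3g and Cd247 had means of 355, 395, 387 and 245 CPM. The Treg markers Foxp3, Il2ra, Ikzf2 and Cd4 summed to between 1348 and 1463 CPM, and Foxp3 itself had 455, 507 and 432 counts. Il2ra had 1217, 1107 and 1252 counts and Cd4 had 1983, 1721 and 1440. These 2 genes passed the chi-square test between libraries, as 27.6% of all genes tested did, and Foxp3 and Ikzf2 did not. Rag1, Rag2 and Ptcra, the partner of the beta chain in immature thymocytes, were at 0 in every library, and Dntt, the enzyme that adds bases at the joint, had 7, 19 and 7 counts. The CD8 T cell markers Cd8a and Cd8b1 summed to between 27.8 and 39.0 CPM. Cd8a had 14, 18 and 32 counts and passed the test, and Cd8b1 had 75, 93 and 80 and did not. Of the B cell markers, Ms4a1 had 121, 155 and 239 counts, Cd79a had 111, 174 and 207, and Cd79b had 230, 326 and 293. Ighm had 3097, 3082 and 2968 counts, and Igkc had 710, 790 and 667. Of the gamma delta T cell list, Sox13 was at 0, gamma V genes summed to 6, 7 and 9 counts, delta V genes to 69, 64 and 47, and gamma constant genes to 37, 35 and 63. The part of other T cells in the V counts was not tested.

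All 21 beta V genes passed 3 counts in every library. Their levels fell into a broad upper range and a short low tail, with 14 genes holding between 4 and 9% of TRBV counts each. Trbv3, which encodes the V beta known in older nomenclature as Vβ16, was highest at 493, 546 and 450 counts (160 ± 8.18 CPM, SD, n = 3). Trbv13-2, formerly Vβ8.2, followed with 436, 503 and 419 counts (146 ± 9.93 CPM). The ranges of these neighbours overlapped, 154 to 169 CPM for Trbv3 and 136 to 156 CPM for Trbv13-2. Trbv19 (Vβ6) had 404, 421 and 388 counts, Trbv5 (Vβ1) had 413, 449 and 329, and Trbv16 (Vβ11) had 402, 406 and 350. These 3 genes averaged 130 ± 4.55, 127 ± 12.3 and 124 ± 2.15 CPM, and their means lie within the SD of Trbv5.

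**Figure D1:**
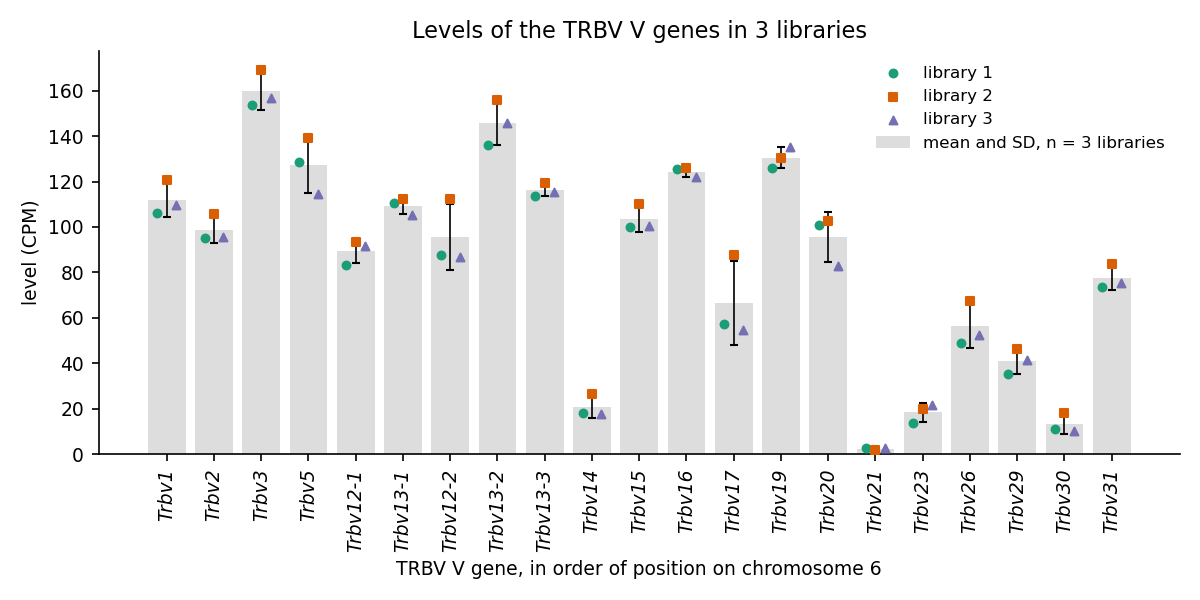
Level in CPM (y axis) of each of the 21 TRBV V genes in order of position on chromosome 6 (x axis), with 3 points for the libraries, a bar for the mean and a line for the SD (n = 3). Trbv3 is highest at 160 CPM, Trbv21 lowest at 2.38 CPM, and the library 2 point is the highest of the 3 for most genes.

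The next 5 genes were close together. Trbv13-3 (Vβ8.1) had 365, 385 and 332 counts, Trbv1 (Vβ2) had 340, 389 and 315, and Trbv13-1 (Vβ8.3) had 355, 363 and 302. Trbv15 (Vβ12) had 321, 356 and 288 counts and Trbv2 (Vβ4) had 305, 341 and 275. Per coding base the order of the 21 genes changed by no more than 1 rank.

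The low tail held Trbv14 (Vβ13) with 58, 86 and 51 counts, Trbv23 (Vβ20) with 44, 64 and 62, Trbv30 (Vβ18) with 36, 59 and 29, and Trbv21 (Vβ19) with 8, 6 and 8. Trbv21 averaged 2.38 ± 0.474 CPM, and per coding base Trbv3 stood 56.1-fold above it. The remaining genes lay between: Trbv12-2 (Vβ5.1) at 95.6 ± 14.6 CPM, Trbv20 (Vβ15) at 95.5 ± 10.95, Trbv12-1 (Vβ5.2) at 89.5 ± 5.46, Trbv31 (Vβ14) at 77.5 ± 5.40, Trbv17 (Vβ9) at 66.5 ± 18.4, Trbv26 (Vβ3.1) at 56.4 ± 9.85 and Trbv29 (Vβ7) at 41.04 ± 5.62 CPM. Trbv31 is the exception in orientation, on the minus strand beyond the constant genes.

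By family, usage of the beta chain was led by Trbv13, formerly the Vβ8 group of 3 genes. It took 20.9%, 19.9% and 21.1% of TRBV counts in the 3 libraries, with exact binomial 95% intervals of 19.8 to 21.96%, 18.9 to 20.9% and 19.97 to 22.3%. Intervals cover counting error only. Trbv12, with 2 genes, took 9.89%, 10.6% and 10.3%, and Trbv3 took 8.90%, 8.68% and 9.02%. The other 15 families held 1 gene each, and the smallest, Trbv21, took 0.144%, 0.0954% and 0.160%. For 17 of 18 TRBV families the intervals of the 3 libraries overlapped. The exception was Trbv17, with 3.30%, 4.50% and 3.15%. Overlap was not computed for other sets of genes, so this count has no background beside it.

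**Figure D2:**
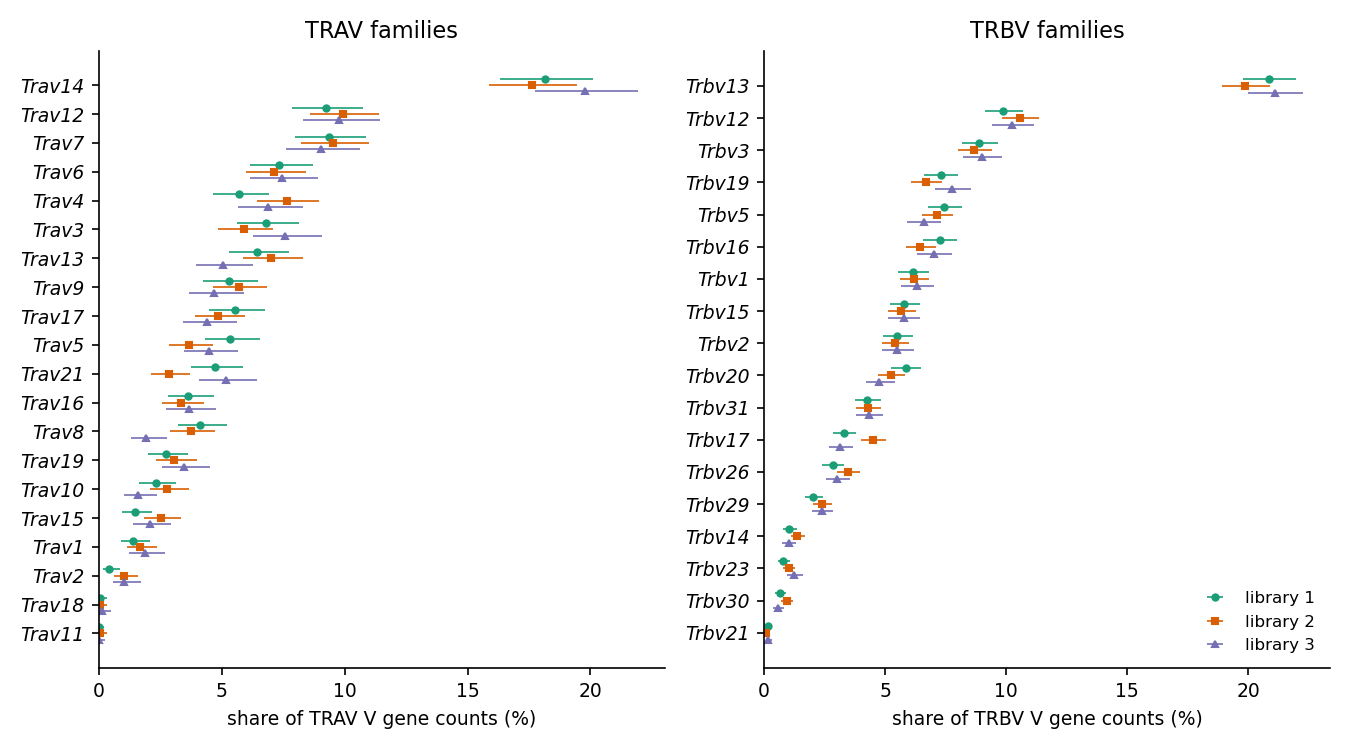
Share of the V counts of the chain (x axis, %) for each TRAV family (left) and TRBV family (right) in the 3 libraries, with exact binomial 95% intervals as lines. Trav14 and Trbv13 lead in every library, and Trbv17, Trav21 and Trav8 are the families whose intervals do not all overlap.

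Usage of the alpha chain was spread over more genes than that of the beta chain, but it also has more V genes. Of 98 TRAV genes 70 had a count in some library and 56 had 3 or more counts in every library. The leading gene, Trav3-3, had 90, 80 and 84 counts (27.4 ± 2.31 CPM, SD, n = 3). Trav17 had 91, 87 and 64 counts, Trav12-2 had 76, 95 and 61, and Trav14-1 had 84, 76 and 56. A different gene led in each library, Trav17 in library 1, Trav12-2 in library 2 and Trav3-3 in library 3. Trav21-dv12, which can also join to the delta chain, had 78, 51 and 75 counts, and Trav14-2 had 62, 78 and 63. The other genes of the 10 highest were Trav13-1 (57, 63 and 49 counts), Trav4-4-dv10 (40, 79 and 49), Trav14d-3-dv8 (42, 55 and 63) and Trav7-4 (57, 53 and 43). The same 10 genes led per coding base.

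Trav14 was the leading alpha family in all 3 libraries, with 299, 316 and 287 counts, or 18.1%, 17.6% and 19.8% of TRAV counts. Trav12 followed with 152, 178 and 142 counts, Trav7 with 154, 171 and 131, and Trav6 with 121, 128 and 108. Trav4 had 94, 137 and 100 counts and Trav3 had 112, 106 and 110. At the low end, Trav2 had 7, 18 and 15 counts, Trav18 had 1, 1 and 2, and Trav11 had 0, 1 and 0. For 18 of 20 families the intervals of the libraries overlapped, again with no such count for other genes. The exceptions, chosen after their values were seen, were Trav21, with 4.73%, 2.84% and 5.17%, and Trav8, with 4.13%, 3.73% and 1.93%.

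V genes that mark T cells of fixed receptor were of separate interest. Trav11 and Trav11d supply the invariant alpha chain of NKT cells, and Trav1 that of MAIT cells. Trav11 had 1 count, in library 2, and Trav11d had none, and of the NKT cell markers Zbtb16 was at 0 in every library, Klrb1c had 10, 12 and 7 counts and Cd1d1, which B cells and other cells also express, had 268, 262 and 239. The transcript of Trav11d lies whole within that of Trav11, so a read cannot be placed in Trav11d alone and the counts do not show how much either was used. The ends are printed because they differ by the base in capitals alone, which is the last base of the Trav11 model.
Trav11: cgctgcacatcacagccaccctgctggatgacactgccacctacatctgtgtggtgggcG
Trav11d: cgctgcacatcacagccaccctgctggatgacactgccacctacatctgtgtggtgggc

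These stretches lie at chr14:53519800-53519859 and chr14:52824854-52824912, both on the plus strand. Trav1, no 50-base window of which is found in another V gene, had 23, 30 and 27 counts, or 8.62 ± 1.26 CPM (SD, n = 3), and took 1.63% of TRAV counts.

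Part of the mouse TRAV locus is duplicated, and the copies carry the suffix d or n in their symbols. A transcript was cut into all its 50-base windows, and the share of windows found in no other TRAV or TRBV transcript was taken. Of 31 TRAV genes with no such window, 26 had no count. Of 29 with some but under 50%, 2 had none, and of 38 with 50% or more, 0 had none. These 38 genes held 72.4% of TRAV counts. Of the 28 members without a count, 26 thus had no stretch of 50 bases to themselves, and a 0 there does not show that the gene was unused. With windows of 75 and 100 bases, 31 and 30 genes had no window of their own, and 26 of them had no count in either case. How the counting treated reads that fit several genes is not given in the sources used here. Every TRBV gene had at least 98.8% of windows to itself.

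**Figure D3:**
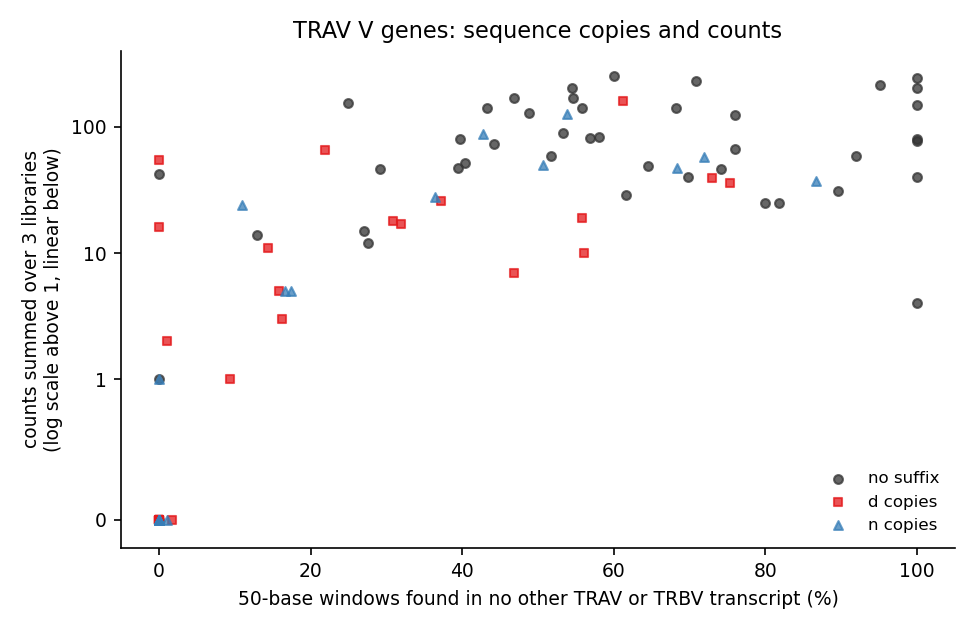
Counts summed over the 3 libraries (y axis, log scale above 1 and linear below) against the share of 50-base windows found in no other TRAV or TRBV transcript (x axis, %), 1 point for each of the 98 TRAV genes, with genes of no suffix, d copies and n copies marked. Genes at 0 counts sit at the left edge, and all 38 genes at 50% or more have counts.

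Of the 55 copies with the suffix d or n, 27 had no count, and the copies held 19.6% of TRAV counts. The 43 genes of no suffix held 80.4%, and 1 of them had no count. The transcripts of 26 TRAV genes were identical to that of another V gene, and 23 of these were at 0. The 3 exceptions, chosen after their values were seen, were Trav14d-1 with 55 counts over the 3 libraries, Trav12d-1 with 16 and Trav5n-4 with 1.

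A pair of trios, also chosen after their values were seen, shows which copies can be told apart. Only the last 60 bases of each were compared, and they are printed with the positions that differ within the trio in capitals, 2 positions in each trio.
Trav6-6: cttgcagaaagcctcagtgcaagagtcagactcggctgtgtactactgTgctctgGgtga
Trav6d-6: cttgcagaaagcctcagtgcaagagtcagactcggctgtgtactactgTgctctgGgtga
Trav6n-6: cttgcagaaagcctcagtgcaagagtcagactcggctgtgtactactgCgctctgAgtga
Trav14-1: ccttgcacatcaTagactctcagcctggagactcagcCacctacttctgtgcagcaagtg
Trav14d-1: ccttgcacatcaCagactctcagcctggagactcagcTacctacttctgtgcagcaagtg
Trav14n-1: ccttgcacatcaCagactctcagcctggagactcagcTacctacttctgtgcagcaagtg

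These ends lie on the plus strand at chr14:53517307-53517366, chr14:52822300-52822359 and chr14:53133078-53133137 for the Trav6 trio, and at chr14:53554499-53554558, chr14:52856107-52856166 and chr14:53167119-53167178 for the Trav14 trio, in the order printed. Trav6-6 and Trav6d-6, whose ends are alike, had 0 counts, and Trav6n-6 had 16, 15 and 16. In the other trio Trav14-1 had 84, 76 and 56 counts, Trav14d-1 had 22, 15 and 18, and Trav14n-1 had 0. Over the whole transcript, Trav6n-6 had 68.4% and Trav14-1 95.1% of windows to themselves. Trav6-6 and Trav6d-6 are identical throughout, as are Trav14d-1 and Trav14n-1, so the counts do not show how much either gene of these pairs was used.

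Evenness of usage was described by the effective number, the count of equally used genes that would give the same Shannon entropy. For TRAV it was 44.5, 46.5 and 43.2 (44.7 ± 1.68, SD, n = 3) of 98 genes. For TRBV it was 17.5, 17.99 and 17.6 (17.7 ± 0.271) of 21 genes. The inverse Simpson index, which weights the leading genes more, was 35.9 ± 1.68 for TRAV and 16.5 ± 0.351 for TRBV. The 10 leading genes held 41.8 ± 1.44% of TRAV counts and 68.4 ± 1.66% of TRBV counts. Among the 38 TRAV genes with 50% or more windows of their own, a restriction chosen after seeing the data, the effective number was 28.2.

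The order of the genes was much the same in every library, though a different TRAV gene led in each. Spearman coefficients of the counts of 2 libraries across genes were 0.961 to 0.970 for the 98 TRAV genes and 0.974 to 0.980 for the 21 TRBV genes. The TRAV coefficients are raised by 28 genes without a count in any library, which tie at the bottom in each. A coefficient without these genes was not computed. The genes share libraries and are not independent replicates.

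Differences between libraries beyond counting error were tested gene by gene, by chi-square of the library counts against a Poisson model, with Benjamini-Hochberg adjustment over all genes tested. Of the 119 V genes 65 had the required mean count of at least 10, and the other 54 were too low to test, 53 of TRAV and Trbv21. Among the 65, 8 passed at an adjusted p of 0.05 (12.3%), against 27.6% of the 10282 genes tested in all. They were 5 of 45 TRAV and 3 of 20 TRBV genes. Of the 65 tested, 6 passed and were highest in library 2, and 896 of the 10282 genes tested in all (8.71%) did so. Among the genes that passed, it was 6 of 8, against 896 of 2836. Of the 65, 1 passed and was highest in library 1, against 11.1% of all genes tested. For library 3 it was 1 of 65, against 7.75%. At an unadjusted p under 0.05 there were 16 V genes (24.6%), against 38.6% of all genes tested. A negative binomial model was also used, with a common CV between libraries of 12.5%, estimated with edgeR from the same 3 libraries. That CV already holds the spread under test, so few calls follow from the model itself. With it 0 V genes passed after adjustment, and 94 of all genes (0.914%) did. Unadjusted, 6 V genes were under 0.05 (9.23%, against 6.74% of all genes). Highest over lowest library had a median ratio of 1.29 over the 65 V genes, from 1.02 to 3.31, against 1.254 over all genes tested. It was 1.44 for the 45 TRAV genes, which have lower counts, and 1.11 for the 20 TRBV genes.

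Among TRBV genes, Trbv17 had the lowest adjusted p, with 183, 283 and 157 counts, so that library 2 stood apart from the others. The ratio was 1.57 and the adjusted p 1.42e-05. Trbv12-2 had 281, 363 and 249 counts (ratio 1.27, adjusted p 0.0167), and Trbv26 had 157, 218 and 151 (ratio 1.34, adjusted p 0.0392). All 3 were highest in library 2.

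Among TRAV genes, Trav4-4-dv10 was highest in library 2, with 40, 79 and 49 counts, a ratio of 1.91 and an adjusted p of 0.0138. Trav10 had 25, 40 and 15 counts (ratio 2.32, adjusted p 0.0449) and Trav13-2 had 25, 32 and 10 (ratio 2.78, adjusted p 0.0496), both highest in library 2 and lowest in library 3. Trav21-dv12 went the other way, with library 2 the lowest at 51 counts beside 78 and 75 (ratio 1.69, adjusted p 0.0340). Trav8d-2 was highest in library 1, with 22, 11 and 6 counts (ratio 3.29, adjusted p 0.0392). All adjusted p-values are from the chi-square test across all genes.

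None of these calls held with library 2 left out, when 0 of the 8 genes and 962 of all genes (9.40%) passed. Trav8d-2, with library 2 between the others, kept its ratio of 3.29 there, with an adjusted p of 0.0599. Without library 1, 5 V genes passed (7.69%), against 1691 of all genes (16.5%), and Trav4-4-dv10, Trbv26 and Trav8d-2 did not, the last for too few counts to test. Without library 3, 4 passed (6.15%), against 2015 of all genes (19.5%), and Trav8d-2, Trav10, Trav13-2 and Trav21-dv12 did not. When usage within a chain was compared, with the summed V counts of the chain as library size, Trav21-dv12, Trav4-4-dv10, Trav8d-2 and Trbv17 passed. Their p-values were adjusted together with those of all other genes, which kept the library sizes of the main test and were not recomputed, so there is no share over all genes for these calls.

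**Figure D4:**
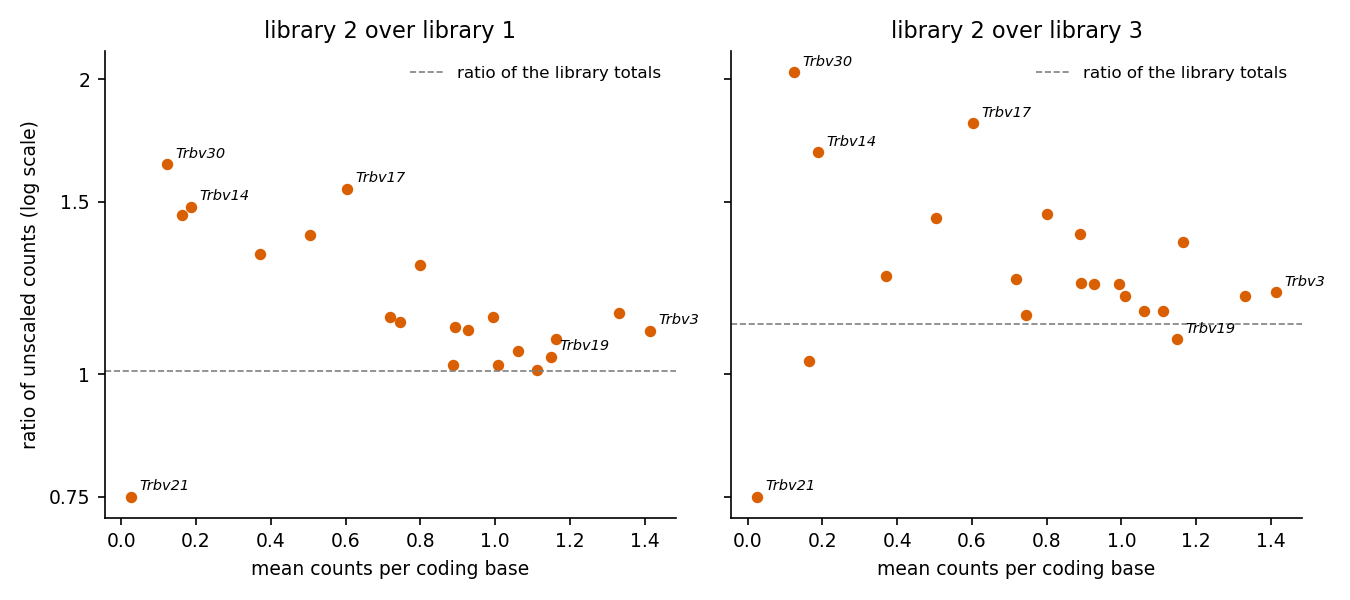
Ratio of unscaled counts, library 2 over library 1 (left) and library 2 over library 3 (right), on a log axis, against the mean counts per coding base (x axis), 1 point for each of the 21 TRBV genes, with a dashed line at the ratio of the library totals. Above the dashed line lie 20 of 21 genes on the left and 18 of 21 on the right, and Trbv21, with the fewest counts, lies below at 0.75 in both.

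Library 2 held more beta V counts per total than the others. The same held for alpha V counts, at 556 CPM against 514 and 505 CPM in libraries 1 and 3. Library 2 gave the highest scaled level for 14 of the 20 TRBV genes tested and the lowest for none. Libraries 1 and 3 gave the highest for 3 each. Of the 45 TRAV genes tested, library 2 was highest for 19 and lowest for 10. Over all 10282 genes tested, it was highest for 3650 and lowest for 3755. The counts of library 2 were a median of 1.13 times those of library 1 over the 21 TRBV genes, where the totals stood at a ratio of 1.01. Against library 3 the median was 1.24, with totals at 1.12. Over the 45 TRAV genes with a mean count of at least 10, the medians were 1.15 against library 1 and 1.24 against library 3. The ratio was above that of the totals for 20 of 21 TRBV genes against library 1 and for 18 of 21 against library 3. Among all genes with at least 300 coding bases and 1 count per coding base, it was above for 266 of 361 (73.7%) and 151 of 361 (41.8%). Only 7 of the 21 TRBV genes reach that level, so these shares are no matched background for the other 14. The excess over library 1 was smaller for the more abundant genes, with a median ratio of 1.05 for the 7 genes with at least 1 count per coding base and 1.22 for the 14 below. Across the 21 genes the Spearman coefficient of this ratio with counts per coding base was -0.50, and -0.27 for the ratio to library 3. Over all genes of at least 300 coding bases and a mean count of at least 10, the median ratio to library 1 was 1.05 for the 361 with at least 1 count per coding base and 1.02 for the 9683 below. The median ratio to library 3 was 1.10 and 1.16 for these sets, and 1.20 and 1.26 for the 7 and 14 TRBV genes. Against library 3 the ratio was thus lower for the more abundant genes both in TRBV and over all genes. Against library 1 it was lower for them in TRBV but not over all genes. Trac, Trbc1 and Trbc2 were not highest in library 2 by CPM. Whether the count per base limits the V genes was not tested.

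Immunoglobulin V genes, which encode the antigen receptors of B cells, were counted in the same libraries. Their 213 genes summed to 1528, 2994 and 1386 counts, and the chi-square test called 8 of 65 T cell receptor V genes, against 35 of 36 immunoglobulin V genes tested (97.2%). The median ratio of highest to lowest was 1.29 for the T cell receptor V genes, against 21.7 for the 28 immunoglobulin V genes with a count in every library. The other 8 had a library at 0, and with those libraries set to 3 counts the median over 36 genes was 30.7. Over all genes tested, 27.6% were called and the median ratio was 1.254. The differences between these sets were not tested.

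Position in the locus was set beside the counts. Across the 98 TRAV genes, counts were lower for genes farther from the first J gene, with a Spearman coefficient of -0.48, and -0.42 over the 38 genes with 50% or more windows of their own. With these 38 split by distance, the median count over the 3 libraries was 141 for the 13 genes at 278 to 533 kb, 83 for the 13 at 538 to 1022 kb and 39.5 for the 12 at 1063 to 1726 kb. The ranges overlapped, from 4 to 254 counts among the nearest and from 10 to 160 among the farthest. For the 20 TRBV genes on the plus strand, at 252 to 642 kb, the coefficient had the opposite sign, 0.62. These are descriptions across genes that share libraries, and no p is given.

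**Figure D5:**
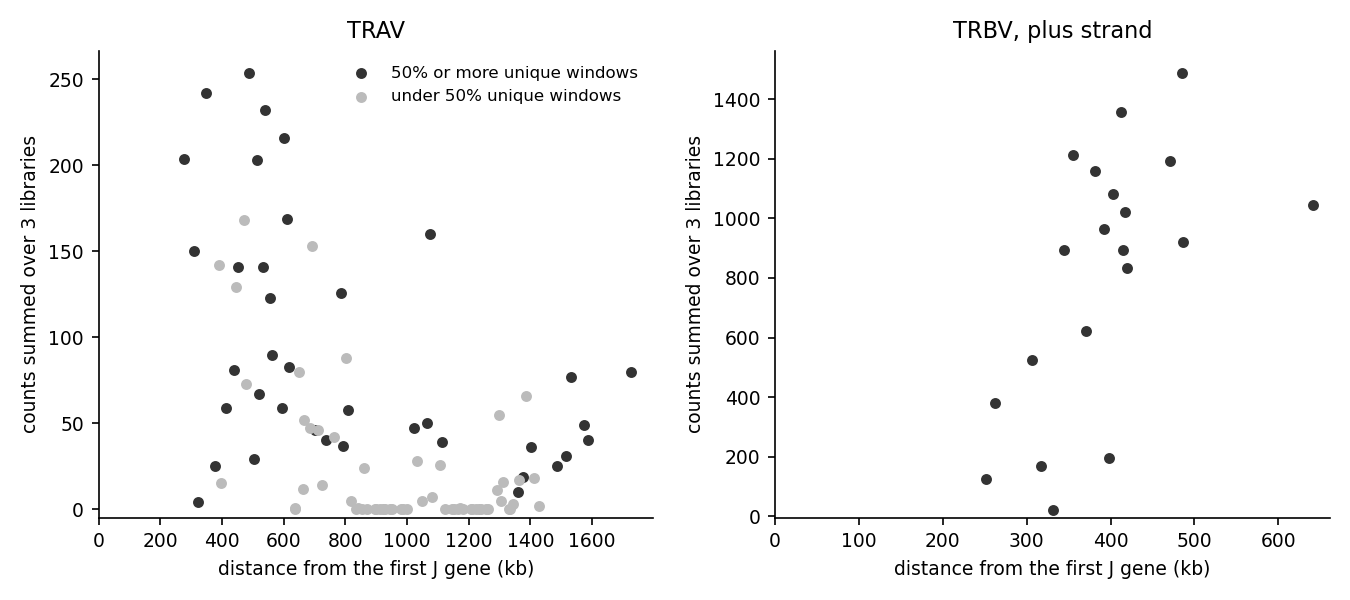
Counts summed over the 3 libraries (y axis) against the distance from the first J gene in kb (x axis), 1 point per gene, for the 98 TRAV genes (left, genes with 50% or more unique windows dark) and the 20 plus-strand TRBV genes (right). The highest TRAV counts lie among the nearer genes, and the lowest TRBV counts lie among the nearer genes.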

How the data were processed

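PolyA plus RNA-seq was deposited by the authors as raw counts, a whole number per gene in each of 3 libraries, with GENCODE M4 gene models per the file descriptions and mm10 per the labels. The aligner, counting program, strand setting, duplicate removal and handling of reads that fit several genes were not given in the sources used here. Sense and antisense or overlapping genes therefore cannot be separated. Names, types, positions, coding lengths and sequences came from GENCODE M21, also GRCm38, so gene models can differ from those counted. Of the identifiers, 22195 matched and 262 did not. The members, gene lists and tests were chosen with earlier results of these data known.

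Levels were scaled to total counts of 3206781, 3228215 and 2872350. Libraries were compared per gene with Pearson's chi-square on 2 degrees of freedom, with totals times TMM factors from edgeR 4.0.16 in R 4.3.3 as library size, a mean count of at least 10, and Benjamini-Hochberg adjustment at 0.05 over all genes. The test was tried on simulated counts. edgeR's quasi-likelihood test was not used, since there is 1 group. Intervals of shares are exact binomial at 95%, and 3 counts were taken as the floor for a 0. Families are the number after Trav or Trbv.

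The text names the 10 highest genes of each chain, every gene that passed the test, Trav11, Trav11d, Trav1, all TRBV families, the 6 highest and 3 lowest TRAV families and the marker genes, of which 1 is not reported here. Others are said to be chosen after their values were seen. Older beta names are RefSeq synonyms. Other scalings (plain totals, size factors of DESeq2 1.42.0) were tried, as were other filters and thresholds, a negative binomial model, length correction, thinning, and leaving out each library. Recombination signal sequences lie outside the transcripts and were not analysed here. Calculations used Python 3.11.15.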

Additional observations from a re-analysis of the deposited data

How the results depend on the processing

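Of 98 TRAV genes 53 had a mean count under 10 and were not tested, and 26 of those without a count had no unique 50-base window. In the chi-square test 8 of 65 V genes passed (12.3%, against 27.6% of all genes tested). With a mean count of at least 50 it was 5 of 30 (16.7%, against 33.2%), so the count fell while the share rose. With a mean count of at least 1 it was 6 of 87 (6.90%, against 21.7%). At an adjusted p of 0.01 it was 1 of 65 (1.54%, against 16.5%). The count became 0 with the negative binomial model and 4 with the V total of the chain as library size. Leaving out 1 library gave 0 to 5, the 0 without library 2. The count over all genes, 2836, became 94 with the negative binomial model and 1700 at an adjusted p of 0.01, and 962 to 2015 with 1 library left out, 962 without library 2. The stricter threshold and the wider spread of the negative binomial model pass fewer genes by construction. A filter changes which genes are tested and adjusted together, so it fixes no direction. For the other settings the cause was not tested. The effective number of TRAV genes, 44.7, became 14.4 with copies summed within their family and 28.2 with genes of 50% or more unique windows, both by having fewer units. That restriction, chosen after seeing the data, put the share of Trav14 at 19.9% against 18.5%. In all, 48 recomputed values stayed within their limits and 14 moved. None reversed. For summed levels, effective numbers and family shares the limit was 1 SD of the 3 libraries. Leaving out 1 of 3 libraries cannot shift a mean that far, so for these results it does not test stability. No paired analysis was possible because the labels give 1 group.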
